A study of Mus musculus with 8 samples.

Results

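The keratins of the interfollicular epidermis build the filament network of its basal and suprabasal layers. The genes followed here in mouse forepaw skin were Krt5, Krt14, Krt15, Krt1, Krt10, Krt2, Krt77, Krt78, Krt80 and Krt24. They were taken by gene symbol, and each of the 10 had 1 probe set that names no other gene, among 30560 genes measured. The samples were 4 Krt16 null mice (2 males and 2 females), which carry bacterial LacZ in place of the Krt16 coding sequence in all cells, and 4 wild-type (WT) littermates (2 males and 2 females). All were C57Bl/6 and 8 weeks old. The labels call every null sample a lesion and every WT sample normal; the genotype and the lesion state therefore cannot be told apart. Whole paw skin was homogenised, and in such bulk RNA fewer cells of a type and less RNA per cell cannot be told apart.

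Keratin filaments form from obligate pairs of an acidic type I and a basic type II keratin. Basal keratinocytes make K5 with K14, and K15 is a further basal type I keratin. Cells that leave the basal layer switch to K1 with K10, and K2 joins or replaces K1 in the upper suprabasal layers. K24, K77, K78 and K80 are less studied keratins of differentiating epithelium. Among the 10 genes, 4 encode type I keratins (Krt14, Krt15, Krt10, Krt24) and 6 type II keratins (Krt5, Krt1, Krt2, Krt77, Krt78, Krt80).

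Stretches before the listed start are shown for 2 keratin genes that fell, for the major suprabasal type I gene, which was not called, and for a gene that rose, so that their start regions can be compared. Each is the 100 bases before the start in the RefSeq table (GRCm38.p6, all on the minus strand of the genome, written 5′ to 3′ of the gene), and capitals mark matches to TATATAA or TATAAA, which overlap in Krt10 and are missing from the stretch of Krt78. The Krt78 stretch does hold gataaa, which differs from TATAAA only in its first letter and was not marked.
Krt24 (fell), chr11:99285263-99285362: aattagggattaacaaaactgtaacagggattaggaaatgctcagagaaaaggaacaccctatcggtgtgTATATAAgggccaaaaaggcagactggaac
Krt2 (fell), chr15:101818170-101818269: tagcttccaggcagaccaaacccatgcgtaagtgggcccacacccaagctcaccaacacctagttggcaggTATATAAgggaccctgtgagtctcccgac
Krt10 (not called), chr11:99389365-99389464: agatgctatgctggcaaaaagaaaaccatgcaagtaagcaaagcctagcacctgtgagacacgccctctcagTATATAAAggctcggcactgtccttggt
Krt78 (rose), chr15:101954288-101954387: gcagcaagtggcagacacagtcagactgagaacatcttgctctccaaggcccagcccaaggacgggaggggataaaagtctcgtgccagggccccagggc

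Of the 10 genes, 7 had a promoter in the table. The TATATAA match starts 30 bases before the listed start in Krt24, 29 in Krt2 and 28 in Krt10, so it is shared by 2 genes that fell and 1 that was not called. This motif was chosen after the promoters were read; on either strand it occurs in 3 of the 7 windows of 300 bases and in 3.24% of 32851 such windows genome-wide. TATAAA was found in Krt10 alone (13.6% of all windows). The AP-1 motif TGANTCA and the AP-2 motif GCCNNNGGC were found in 0 of the 7 (7.81% and 16.6% of all windows). The C/EBP motif TTGCNNAA was found in Krt10 and Krt77 (10.8%), CACCC in 5 (57.5%) and the E box CANNTG in 6 (72.3%). The listed start lies inside the gene's annotated 5′ end by 42337 bases in Krt78, 8085 in Krt10, 1480 in Krt14 and 787 in Krt2, so for these genes, 3 of them printed here, the window need not be the promoter in use. In Krt24 and Krt5 it is the annotated 5′ end, and in Krt77 it lies 1 base from it. These matches describe letters only.

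Values are RMA signals (background-corrected, quantile-normalized, summarised to 1 value per probe set) on a log2 scale, where 1 unit is a doubling. Each mouse has 1 array, arrays have no read depth, and the number of arrays limits the precision. Median signals were 3.97 to 4.03 on every array. Krt16 itself read 7.05 to 9.66 in WT and 6.83 to 6.99 in null arrays, without overlap, a difference of -1.45 (SE 0.44, limma adjusted p = 0.0615). All 10 epidermal keratins lay above the negative control medians (4.26 to 4.46) on all 8 arrays.

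The central comparison asks how these keratins differ between null lesions and WT skin. Of the 10, Krt24, Krt2 and Krt15 fell, Krt78 and Krt80 rose, and Krt5, Krt14, Krt1, Krt10 and Krt77 did not pass the test (limma with sex as covariate, Benjamini-Hochberg adjusted p under 0.05 over all 30560 genes). Over all genes 7.04% were called higher and 5.97% lower, 13.0% in either direction. That last share depends on the genes and arrays taken: it was 24.7% among genes above the negative controls, 26.6% among genes above the median gene, 6.63% without male null 2, 6.74% without female null 1 and 7.75% without male WT 1. The median difference of the 10 genes was 0.05, against 0.013 for all genes. The 4 null arrays lay wholly apart from the 4 WT arrays in 5 of the 10 genes, the same 5 that were called, against 18.8% of all genes. Of the other 5, 0 had an unadjusted p under 0.05.

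**Figure D1:**
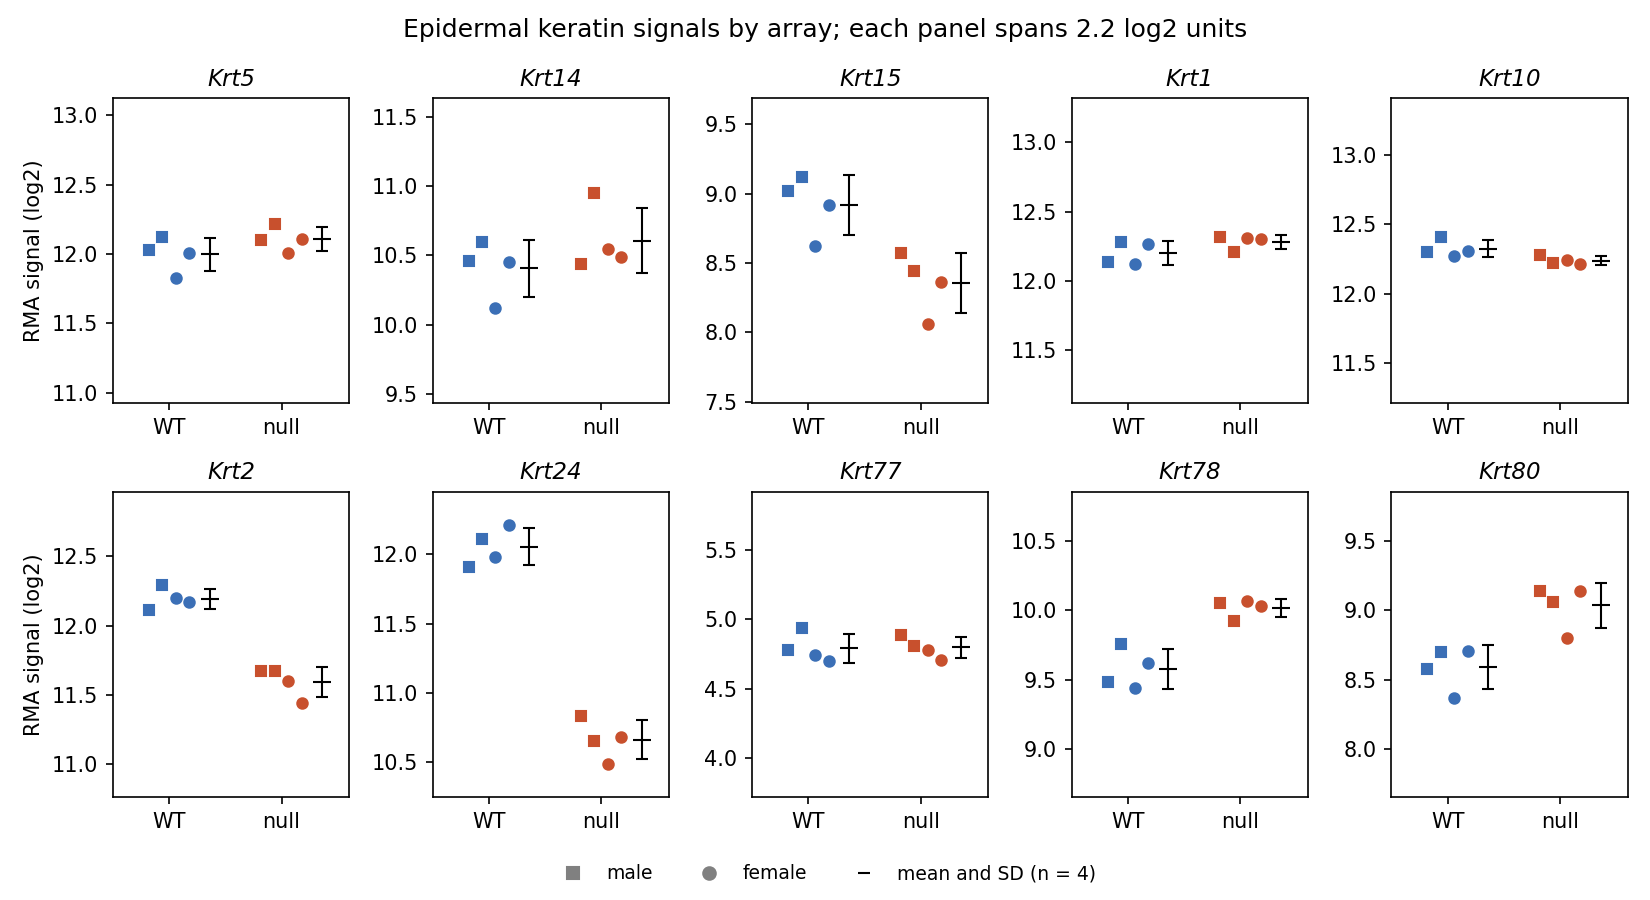
RMA signal (log2) of the 10 epidermal keratins on each of the 8 arrays, WT in blue and null in orange, squares for males and circles for females; black marks give the mean and SD of 4 mice. Krt24, Krt2 and Krt15 are lower and Krt78 and Krt80 higher in each null array than in every WT array, while the groups overlap in Krt5, Krt14, Krt1, Krt10 and Krt77.

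In the basal layer the main pair did not pass the test. Krt5, the type II keratin of basal cells, read 12.03 and 12.12 in male WT, 11.83 and 12.01 in female WT, 12.10 and 12.22 in male null and 12.01 and 12.11 in female null arrays. The groups overlap, with female WT 1 lowest. The difference was 0.11 (SE 0.07, 95% interval -0.04 to 0.26, adjusted p = 0.336). Krt14, its type I partner, read 10.46 and 10.60 in male WT, 10.12 and 10.45 in female WT, 10.44 and 10.95 in male null and 10.55 and 10.49 in female null arrays. Here male null 2 stands highest and female WT 1 lowest, and the other 6 lie between 10.44 and 10.60. Krt14 differed by 0.20 (SE 0.11, 95% interval -0.06 to 0.46, adjusted p = 0.317). Single arrays move this value: it was 0.11 without male null 2, 0.13 without female WT 1 and 0.31 without male null 1, not called in any of the 8 fits that leave out an array (adjusted p = 0.0733 to 0.651).

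Krt15, the other basal type I keratin, which also marks the stem cell region of the hair follicle, fell. It read 9.02 and 9.12 in male WT, 8.62 and 8.92 in female WT, 8.57 and 8.44 in male null and 8.06 and 8.36 in female null arrays. All null arrays lie under all WT arrays, but the gap is only 0.04, between male null 1 and female WT 1. The mean went from 8.92 ± 0.22 (SD, n = 4) to 8.36 ± 0.22, a difference of -0.56 (SE 0.09, adjusted p = 0.00472), or 67.7% of the WT signal. Of 19 measured hair follicle genes 0 were called higher and 4 lower in the same fit, against 7.04% and 5.97% of all genes. Lgr5, a follicle stem cell receptor, differed by -0.55 (adjusted p = 0.0289), but its groups overlap (5.69 in male null 1, 5.60 in female WT 1). The mean level of the follicle genes ran from 7.05 to 8.10 in WT and from 6.82 to 7.46 in null arrays. Its part in the Krt15 result was not tested.

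Neither gene of the early suprabasal pair passed the test. Krt1, the type II partner, read 12.14 and 12.28 in male WT, 12.12 and 12.27 in female WT, 12.32 and 12.21 in male null and 12.31 and 12.30 in female null arrays. Krt10, the type I partner, read 12.30 and 12.41 in male WT, 12.27 and 12.31 in female WT, 12.28 and 12.22 in male null and 12.24 and 12.21 in female null arrays. Both sets overlap between genotypes, Krt10 by no more than 0.01. Krt1 differed by 0.08 (SE 0.06, 95% interval -0.06 to 0.23, adjusted p = 0.466) and Krt10 by -0.08 (SE 0.06, 95% interval -0.21 to 0.05, adjusted p = 0.418).

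Krt2, the type II keratin of the upper suprabasal layers, fell. Its arrays read 12.11 and 12.29 in male WT, 12.20 and 12.17 in female WT, 11.67 and 11.67 in male null and 11.60 and 11.44 in female null mice. A gap of 0.44 separates the highest null array from the lowest WT array, and female null 2 is lowest. The mean went from 12.19 ± 0.07 to 11.60 ± 0.11 (SD, n = 4), a difference of -0.60 (SE 0.07, adjusted p = 0.000929) or 66.0% of the WT signal.

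Krt24, a type I keratin of differentiating keratinocytes, fell most among the 10. Male WT arrays read 11.91 and 12.11, female WT 11.98 and 12.21, male null 10.83 and 10.65 and female null 10.49 and 10.68. No null array comes within 1.09 of a WT array. The mean went from 12.05 ± 0.13 to 10.66 ± 0.14 (SD, n = 4), a difference of -1.39 (SE 0.09, 95% interval -1.60 to -1.19, adjusted p = 3.99e-05), which is 2.62-fold lower. Ranked by the size of the fall, Krt24 stood at place 12 of 30560 genes. By its p-value it stood at place 59.

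Krt78 and Krt80, type II keratins of differentiating epithelium, rose. Krt78 read 9.48 and 9.76 in male WT, 9.44 and 9.62 in female WT, 10.05 and 9.92 in male null and 10.07 and 10.03 in female null arrays. It went from 9.57 ± 0.15 to 10.02 ± 0.07 (SD, n = 4), a difference of 0.44 (SE 0.08, adjusted p = 0.00865). All null arrays stand at least 0.15 above the WT arrays.

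Krt80 read 8.58 and 8.70 in male WT, 8.37 and 8.71 in female WT, 9.14 and 9.06 in male null and 8.80 and 9.14 in female null arrays. The groups are parted by 0.09, with female null 1 nearest to WT. The mean went from 8.59 ± 0.16 to 9.04 ± 0.16 (SD, n = 4), a difference of 0.45 (SE 0.09, adjusted p = 0.0161). Without male WT 1 the difference was 0.42 (SE 0.11) and the call was lost (adjusted p = 0.0556). Both Krt78 and Krt80 thus stood at 1.36 times their WT signal.

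Krt77, a type II keratin related to K1, was the dimmest of the 10 and close to the controls. It read 4.78 and 4.94 in male WT, 4.74 and 4.70 in female WT, 4.89 and 4.81 in male null and 4.78 and 4.71 in female null arrays. The groups lie on top of each other, and the difference was 0.01 (SE 0.06, 95% interval -0.13 to 0.14, adjusted p = 0.968). Its sign turned under 6 of 20 other settings of the analysis.

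The second question was whether type I and type II partners kept their proportion. For each array the log2 signal of the type II gene was subtracted from that of its type I partner. Only the change of this ratio between genotypes is read, since probe sets of different genes respond differently. Each of 3 ratios was tested by exact permutation of the arrays (two-sided, 70 assignments, smallest possible p 0.0286), with p-values adjusted over the 3. Both ratios with Krt10 share that gene and are not independent.

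The basal ratio of Krt14 to Krt5 was -1.57 and -1.52 in male WT, -1.72 and -1.56 in female WT, -1.66 and -1.27 in male null and -1.46 and -1.61 in female null arrays. Its groups overlap, and the SD was 0.18 in null and 0.09 in WT arrays. The ratio changed by 0.09, or 1.06-fold (exact p = 0.40, adjusted p = 0.40), and by 0.01 without male null 2.

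Suprabasal ratios moved in opposite directions. Krt10 to Krt1 was 0.16 and 0.13 in male WT, 0.15 and 0.04 in female WT, -0.03 and 0.01 in male null and -0.07 and -0.09 in female null arrays. All 4 null arrays lie below all WT arrays although neither gene alone passed its test. The ratio fell by 0.17, to 0.891 of its WT value (exact p = 0.0286, the smallest possible, adjusted p = 0.0429).

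The ratio of Krt10 to Krt2 was 0.18 and 0.12 in male WT, 0.07 and 0.13 in female WT, 0.61 and 0.56 in male null and 0.64 and 0.77 in female null arrays. Null and WT arrays are far apart here. The ratio rose by 0.52, or 1.43-fold (exact p = 0.0286, the smallest possible, adjusted p = 0.0429). Krt10 itself differed by only -0.08 and Krt2 by -0.60 with a gap of 0.44. This change therefore mostly restates the fall of Krt2 and is not a separate finding. Without any 1 of the 4 null arrays the adjusted p of both Krt10 ratios was 0.0857. There the exact p was 0.0571 for Krt10 to Krt1 (changes of -0.18 to -0.15) and stayed at 0.0286 for Krt10 to Krt2 (changes of 0.48 to 0.55), whose adjusted p rose only through the other ratio. With the 4 same-numbered pairs of mice as a block, both ratios moved the same way in every pair, but neither passed (exact p = 0.125, the smallest that 16 sign flips allow, adjusted p = 0.188).

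**Figure D2:**
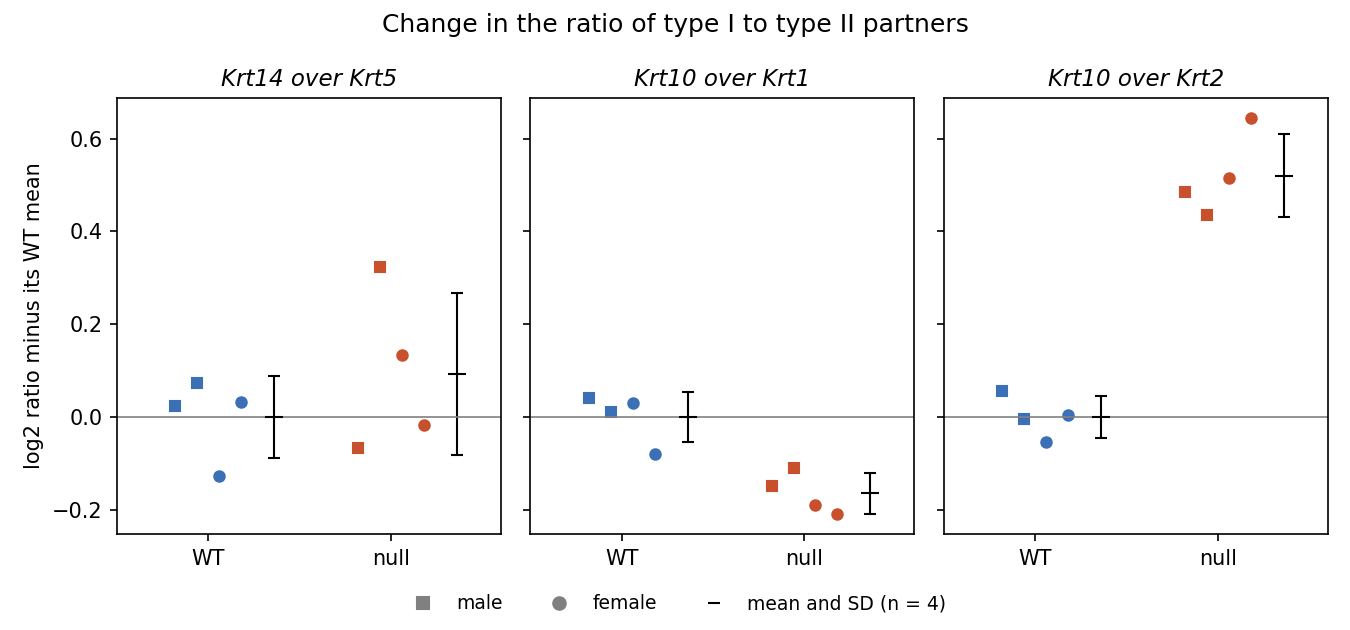
Log2 ratio of type I to type II partners on each array, minus the mean ratio of the 4 WT arrays (0 on the vertical axis), WT in blue and null in orange, squares for males and circles for females; black marks give the mean and SD of 4 mice. Krt10 over Krt2 rose by 0.52 and Krt10 over Krt1 fell by 0.17 without overlap, while Krt14 over Krt5 overlaps between genotypes.

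A further pair of ratios was described without a test. Krt15 to Krt5 ran from -3.22 to -3.00 in WT and from -3.95 to -3.53 in null arrays, a change of -0.67. Krt10 to Krt77 ran from 7.47 to 7.61 in WT and from 7.39 to 7.51 in null arrays, a change of -0.09.

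The differences were also taken within each sex. Signs matched between the sexes in 9 of the 10 genes, Krt77 being the exception. Krt24 fell by 1.28 in males and by 1.51 in females, Krt2 by 0.53 and 0.66, and Krt15 by 0.57 and 0.56. Krt78 rose by 0.36 and 0.53, and Krt80 by 0.46 and 0.43. With 2 mice a group, Krt24 and Krt2 were called within each sex alone (limma adjusted p = 0.00289 and 0.0332 in males, 0.00127 and 0.0139 in females), where 2.22% of all genes were called in males and 3.0% in females.

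The difference between the sexes itself was called for 0 of the 10 genes (limma interaction; 0 with an unadjusted p under 0.05), against 0.00654% of all genes. For Krt24 the effect in males minus that in females was 0.23 (95% interval -0.17 to 0.63, adjusted p = 0.974). For Krt78 it was -0.17 (95% interval -0.54 to 0.20, adjusted p = 0.974). The interval of Krt78 is wide enough to hold a sex difference as large as its effect in either sex alone, so small sex differences were not detectable with 2 mice a group.

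**Figure D3:**
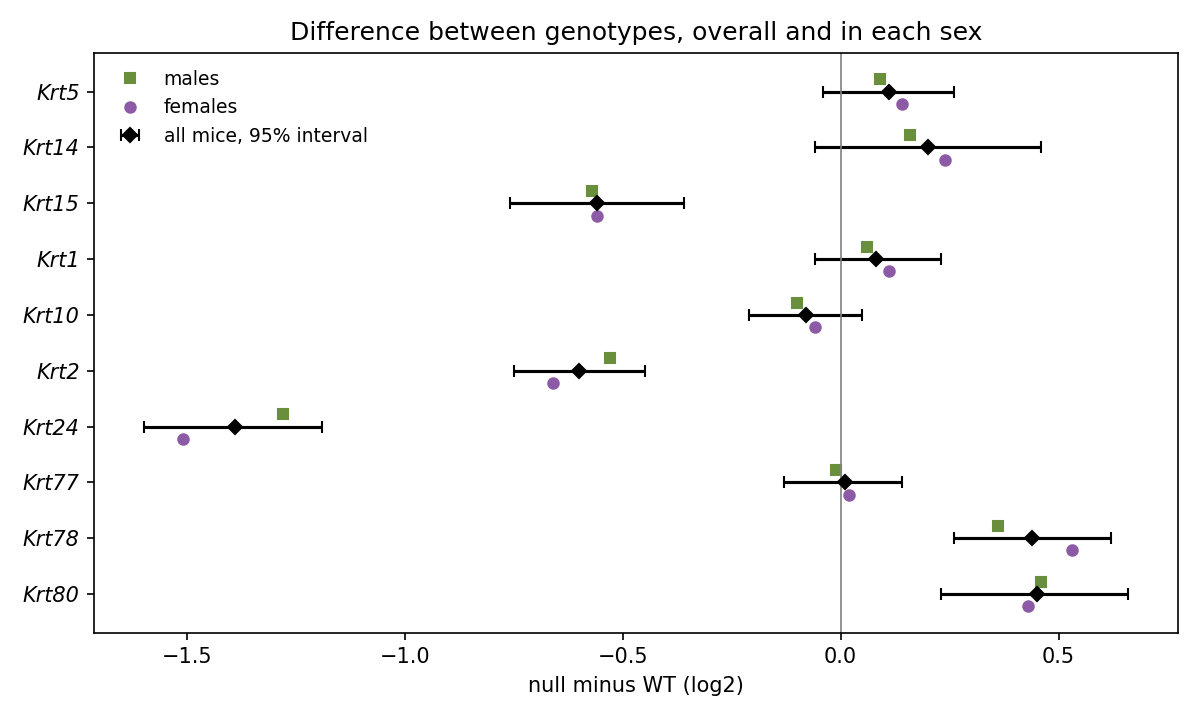
Null minus WT difference (log2) of each keratin over all mice (black diamonds, with the 95% interval of the limma fit), in 4 males (green squares) and in 4 females (purple circles); 0 is no difference. Krt24 lies farthest from 0 at -1.39, and the sexes lie on the same side of 0 in every gene but Krt77.

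Other tissue genes moved with genotype, beside 7.04% of all genes called higher and 5.97% called lower. Of 20 skeletal muscle genes 0 were called higher and 16 lower, led by Neb, a thin filament protein gene, at -1.05, and their mean level was 8.77 to 9.52 in WT and 8.01 to 8.54 in null arrays. Of 23 general epithelial genes 5 were higher and 1 lower, with a mean level of 7.89 to 8.11 in WT and 8.21 to 8.30 in null arrays. The epithelial list had a median difference of 0.05 and a mean of 0.21; its largest rise was Elf3, an epithelial ETS factor, at 1.51 (adjusted p = 0.00035). Neither list overlaps between genotypes, and with sex the muscle mean accounts for 73.8% and the epithelial mean for 74.9% of the variation of the genotype term. As both means follow genotype so closely, fits with either as covariate cannot divide the keratin differences between tissue and genotype. Those fits are given below as a description only.

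With the epithelial mean as a further covariate, Krt24 fell by 1.54 (SE 0.17, adjusted p = 0.00722) and Krt15 by 0.79 (SE 0.15, adjusted p = 0.0433). Krt2 kept its size but not its call (-0.60, SE 0.14, adjusted p = 0.0652). Krt78 and Krt80 shrank to 0.25 and 0.18 and were not called (adjusted p = 0.468 and 0.69). In this fit 1.95% of all genes were called.

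With the muscle mean as covariate 0.969% of all genes were called, among them Krt24 (-1.41, SE 0.18, adjusted p = 0.0124). Krt2 (-0.61, SE 0.14, adjusted p = 0.0926) and Krt15 (-0.69, SE 0.17, adjusted p = 0.104) were as large as before but not called. Krt78 (0.24) and Krt80 (0.30) were smaller and not called (adjusted p = 0.545 and 0.549). Krt5, Krt14 and Krt1, uncalled throughout, had turned signs with either covariate, at -0.09, -0.25 and -0.04 with the epithelial mean. Thus only Krt24 was called in all 3 fits.

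**Figure D4:**
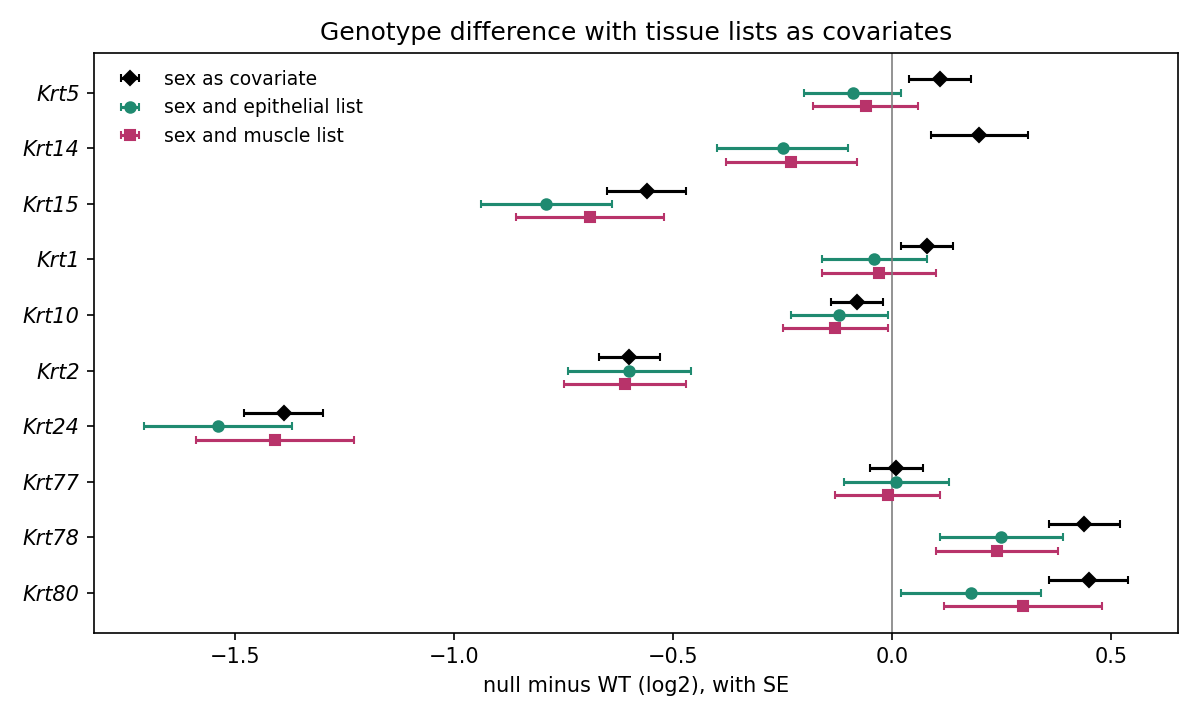
Null minus WT difference (log2) of each keratin, with its SE, from the fit with sex (black diamonds), with sex and the epithelial list mean (green circles) and with sex and the muscle list mean (magenta squares). Krt24, Krt2 and Krt15 stay well below 0 in all 3 fits, Krt78 and Krt80 move toward 0, and Krt5 and Krt14 cross it.

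Keratin genes sit in a type I and a type II cluster, and called genes there have neighbours that were not called. Not called does not mean unchanged. The median difference was -0.60 over the 23 other type I genes measured and 0.12 over the 15 other type II genes. In the RefSeq gene order Krt2, Krt1 and Krt77 lie side by side, with differences of -0.60 (called), 0.08 and 0.01 (neither called). Krt24 lies between Krt222 (0.01, adjusted p = 0.932) and the hair follicle keratin gene Krt25 (-0.71, SE 0.24, adjusted p = 0.0972). Krt26, Krt27 and Krt28, which follow Krt25, differed by -0.60, -0.64 and -0.74 (SE 0.32, 0.27 and 0.32) and were not called. Krt222 averaged 3.31 in WT and 3.33 in null arrays, under the negative control medians, which limits what its difference can show. Krt14 lies between Krt9, the palm and sole keratin (-2.46, adjusted p = 0.000692), and Krt16. Over all genes 7.04% were called higher and 5.97% lower. Of the 23 other type I keratin genes measured, 0 were higher and 2 lower, Krt9 and Krt12 (-0.36, adjusted p = 0.018). Of 15 other type II genes measured 1 was higher, Krt4, a keratin of internal stratified epithelia (0.61, adjusted p = 0.00481), and 0 were lower. The WT mean of Krt4 (4.39) lay within the negative control medians (4.26 to 4.46), and its null mean was 5.0. These counts were not tested against the shares over all genes. Krt12 was named after its value was seen.

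On the shorter list of 20 other measured skin keratins, 1 was higher (Krt4) and 1 lower (Krt9), with a median of -0.02. This too stands beside 7.04% of all genes called higher and 5.97% called lower.

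Other genes of these layers were called in both directions. The share called was 13.0% of all genes and 24.7% of genes above the negative controls. Of 17 basal layer genes 2 were higher and 5 lower (median -0.09), led by Ccnd2, a G1 cyclin, at -0.66 (adjusted p = 0.0035) and Postn, a matrix protein also made by fibroblasts, at 0.97 (adjusted p = 0.0168). Of 24 spinous and granular genes 5 were higher and 2 lower (median -0.03). The cross-linking enzyme gene Tgm1 rose by 0.60 (adjusted p = 0.000745). The metallothionein gene Mt4 fell by 0.47 (adjusted p = 0.03), with groups that overlap.

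Proteins that anchor or bind keratin filaments showed 2 higher and 3 lower genes of 18 measured (median 0.02). The 3 that fell encode proteins of the hemidesmosome, where basal cells tie K5 and K14 filaments to the basement membrane. Col17a1, its transmembrane collagen, fell by 0.61 (adjusted p = 0.000295), Dst, which encodes the linker BPAG1 among other forms, by 0.49 (adjusted p = 0.00768), and the linker gene Plec by 0.22 (adjusted p = 0.0471). Bulk skin does not show in which cells these genes fell. Of 20 skeletal muscle genes 16 were lower in the same fit, and the part of muscle in these falls was not tested. Sfn, a 14-3-3 protein of keratinocytes, rose by 0.72 (adjusted p = 0.000456), and the small heat shock gene Hspb1 by 0.27 (adjusted p = 0.0448). Beside these counts stand 13.0% of all genes called, and 24.7% of genes above the negative controls. Col17a1 and Dst are also on the basal layer list, so the falls of the 2 lists are partly the same genes.

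Of 30 measured regulators of epidermal differentiation and keratin genes, 4 were higher and 3 lower (median -0.05). Over all genes 13.0% were called in either direction, and 24.7% among genes above the negative controls. The list was not tested against these shares. It shares Dlx3 with the hair follicle list. The AP-2 factor gene Tfap2b fell by 0.75 (adjusted p = 0.000595), the homeobox gene Dlx3 by 0.45 (adjusted p = 0.00247) and Maf, a factor of keratinocyte differentiation, by 0.45 (adjusted p = 0.00354). The cofactor gene Hopx rose by 0.61 (adjusted p = 0.00119), Ets1 by 0.50 (adjusted p = 0.0261) and Klf5, a factor of proliferating keratinocytes, by 0.43 (adjusted p = 0.00359).

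For each called keratin the genes with the most similar pattern were sought, by the root mean square difference of mean-centred log2 values over the 8 arrays, among 17500 genes with settled names. This measure includes the genotype difference. Closest to Krt15 were Fras1, a basement membrane protein gene (0.10), and Col17a1 (0.125). Closest to Krt24 were Dapl1, a gene of early epithelial differentiation (0.164), and the alcohol dehydrogenase gene Adh1 (0.175), which fell by 1.13 and 1.09 on the log2 scale. Krt2 was nearest to Faah (0.06) and Stmn2 (0.062), Krt78 to the membrane protease gene Tmprss13 (0.062) and Plbd1 (0.064), and Krt80 to the chemokine gene Cxcl16 (0.076) and Chordc1 (0.082).

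By the same measure the partner was the closest gene in 0 of the 5 pairs described. Among the 30559 other genes, Krt5 ranked 171 from Krt14 (0.128), Krt1 ranked 8081 from Krt10 (0.093) and Krt2 ranked 28252 from Krt10 (0.266). Seen from Krt15, Krt5 ranked 15336 (0.358), and Krt77 ranked 1707 from Krt10 (0.064). Ranks for Krt10 are set among many genes that barely varied, and they describe these 8 arrays only.

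Markers of further tissues in the same samples moved as follows, beside 7.04% of all genes called higher and 5.97% called lower. Called members were 0 higher and 4 lower of 11 fibroblast genes (Dpt -0.86), 1 higher and 8 lower of 11 sebaceous genes (Fabp5 1.00, Mc5r -0.96), and 0 higher and 1 lower of 11 sweat gland genes (Trpv6 -0.46). They were 0 higher and 1 lower of 7 adipocyte genes (Plin4 -0.40), 2 higher and 0 lower of 8 endothelial genes (Vwf 0.27), and 5 higher and 0 lower of 8 melanocyte genes (Tyrp1 1.75). They were 0 higher and 1 lower of 5 Schwann cell genes (Pmp22 -0.47) and 4 higher and 1 lower of 12 leukocyte genes (Itgax 0.79, Cd163 -0.97). The WT means of Tyrp1 (4.31) and Itgax (4.27) lay within the negative control medians (4.26 to 4.46). The part of these markers in the keratin differences was not tested.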

How the data were processed

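RNA from forepaw skin of 8 mice was labelled with the WT PLUS kit and read on single-colour Affymetrix arrays, 1 per mouse. Per the submitters' processing notes, the authors used Partek and RMA to make the deposited log2 values. Versions, settings and genome build were not given in the sources used here. Signals of the brightest keratins (up to 12.41) approach the highest value on any array (13.48 to 13.58), and RMA compresses large changes.

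The arrays hold 72688 probe sets, and setting aside 6732 controls leaves 65956. The annotation lists 32750 of these, 30604 with 1 gene symbol and 2146 with several. After symbols were updated through a RefSeq table (GRCm38.p6), 31089 probe sets named 1 gene, giving 30560 genes, with the brightest probe set kept for the 427 with several. No filter on low values was applied.

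Differences (null minus WT) were fitted with limma 3.58.1 in R 4.3.3 (lmFit, eBayes with trend) with sex as covariate and 5 residual degrees of freedom, adjusted by Benjamini-Hochberg over all genes. Sex effects came from 4 group means with 4 residual degrees of freedom. The script was tested on simulated data. Tables were prepared in pandas 2.3.3 and numpy 2.4.6 (Python 3.11.15) and plots drawn in matplotlib 3.10.9.

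Whether null and WT mice with the same sex and number deviate together was checked: after group means were removed, their values correlated across genes at 0.318 in males and 0.116 in females. The 2 pairs of each sex have by construction 1 value in common, and swapping the numbers within a group would only turn its sign. These values therefore cannot show whether the numbers mark pairs. The labels do not say that numbers mark litters, and the pairs entered as a block in an alternative. The fit was also repeated with array weights, with muscle or epithelial list means as covariates, without each array, without sex, without trend and with a robust prior. On the side of the values, median centring, a repeated quantile normalization, 2 filters on dim genes, all probe sets, and probe sets averaged per gene were tried.

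The keratins and all gene lists were chosen with earlier results of these data known. Genes named are the 10 keratins, Krt16, and the largest called rise and fall of each list (3 of each for filament-binding proteins and regulators), the 2 nearest patterns of each called keratin, and neighbours in the clusters. Krt6a, Krt6b and other genes without a probe set of their own were not analysed here.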

Additional observations from a re-analysis of the deposited data

Results flagged for a closer look

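Among 26 groups of 4 arrays checked (each of the 10 keratins and 3 partner ratios in WT and in null mice), 1 held an array far from the others, and chance alone sets off about 1 in 20 such groups. Krt1 in null skin read 12.21 in male null 2 and 12.30 to 12.32 in the other 3 null arrays. The gap made up 0.86 of the whole range, above Dixon's 95% critical value for 4 values. Without male null 2 the difference of Krt1 was 0.11 (limma adjusted p = 0.456), against 0.08 with it.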

How the results depend on the processing

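Of 5 epidermal keratins called, 2 (0 higher, 2 lower) were called with the epithelial list mean as covariate and 1 with the muscle list mean; leaving out each array gave 4 to 5, and every other setting gave 5. The share of all genes called moved much more: from 6.63% to 13.5% without single arrays, 7.34% over all probe sets, 24.7% and 26.6% with the filters on dim genes, and 11.7% to 16.8% in the other settings without a list covariate. The sex interaction was called for 0 in all settings run. Over the 10 genes and all settings, 189 values kept direction and side of the threshold, 8 lost the call and 12 turned sign, all 12 of them uncalled. With the muscle mean Krt5 stood at -0.06, Krt14 at -0.23, Krt1 at -0.03 and Krt77 at -0.01; with the epithelial mean Krt5 stood at -0.09, Krt14 at -0.25 and Krt1 at -0.04. Krt77 stood at -0.01 with array weights and between -0.02 and 0.04 without single arrays. It was not tested under the stricter filter on dim genes. With the covariates fewer genes of all were called and standard errors rose. With sex, the muscle mean accounts for 73.8% and the epithelial mean for 74.9% of the variation of the genotype term. Such overlap by itself widens standard errors, so the lost calls cannot be read as an effect of tissue content.

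With mice of 1 number as a replicate block, all 5 calls among the keratins were kept. The ratio changes of Krt10 to Krt1 (-0.17) and Krt10 to Krt2 (0.52) gave exact p = 0.125 with sign flips of the 4 pairs (adjusted p = 0.188), and exact p = 0.0556 with assignments within sex (adjusted p = 0.0833). These are the smallest such designs allow and say nothing of stability. Without single arrays the ratio of Krt14 to Krt5 changed by 0.01 to 0.14, Krt10 to Krt1 by -0.19 to -0.15 and Krt10 to Krt2 by 0.48 to 0.55. Of the 10 genes Krt77 lies nearest to the negative controls, which limits what its signal can show.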

Other observations

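Among WT mice the arrays differed over several keratins at once. Female WT 1 was the lowest of the 4 WT arrays in 7 of the 10 keratins (Krt5, Krt14, Krt15, Krt1, Krt10, Krt78 and Krt80), and male WT 2 the highest in 8. The same array, female WT 1, had the highest muscle list mean (9.52), the lowest epithelial list mean (7.89) and the lowest hair follicle list mean (7.05) of the WT arrays, and the lowest Krt16 signal among them (7.05). Krt24, Krt2 and Krt77 did not follow this order: Krt24 and Krt2 were lowest in male WT 1 and Krt77 in female WT 2.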
